A study of Homo sapiens with 7 samples.

Results

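The miR-30 family comprised 8 mature miRNAs out of the 2652 that were counted, chosen by name: the 5 strands hsa-miR-30a-5p, hsa-miR-30b-5p, hsa-miR-30c-5p, hsa-miR-30d-5p and hsa-miR-30e-5p, and the 3 opposite arms hsa-miR-30a-3p, hsa-miR-30d-3p and hsa-miR-30e-3p. All 8 had reads in all 7 small RNA libraries of HepG2, an established human liver cancer line. Cells labelled wild type had received siRNA 2 or siRNA 1, both directed at TEAD1, for 24, 36 or 48 h (1 library for each siRNA and time), and 1 library came from untreated cells at 0 h. TEAD1 is a DNA-binding transcription factor through which the Hippo pathway acts, and the question was which miRNAs respond to its silencing. TEAD1 mRNA is not measured in small RNA libraries, and with no library of a control siRNA here, loss of TEAD1, transfection and time in culture cannot be told apart. The labels do not say whether libraries came from separate cultures, so p-values here reflect library-to-library spread that could be technical. The libraries of each time received different siRNAs. In comparisons between times or with untreated cells, that spread therefore also holds any difference between the siRNAs.

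A miRNA is cut from a hairpin, and 1 of its arms is loaded into an Argonaute protein, where the seed near the 5′ end pairs with target mRNAs. The more abundant arm of a hairpin is usually called the guide and the other the passenger. miR-30 strands are widely expressed in epithelia, liver included, and have been described as repressors of mesenchymal and fibrosis-related genes and of several regulators of autophagy.

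The members are shown by sequence because they fall into 2 seed groups and because single bases separate some of them. Seeds (bases 2 to 8, counted from the 5′ end) are in capitals, and the sequences are those of RefSeq (GRCh38.p14), which were identical to those in the deposited files. The 5p strands of hsa-miR-30a, hsa-miR-30e and hsa-miR-30c read 5′ to 3′ as follows.
hsa-miR-30a-5p: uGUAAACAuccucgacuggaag
hsa-miR-30e-5p: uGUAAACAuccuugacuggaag
hsa-miR-30c-5p: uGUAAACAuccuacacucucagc
The opposite arms of 2 of these hairpins carry another seed.
hsa-miR-30a-3p: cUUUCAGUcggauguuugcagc
hsa-miR-30e-3p: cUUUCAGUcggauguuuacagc
The seed GUAAACA was held by the 5 listed 5p members and by no other of the 2652 miRNAs, and UUUCAGU by the 3 listed 3p members and by no other. hsa-miR-30a-5p and hsa-miR-30e-5p differ by C13U alone, and hsa-miR-30a-3p and hsa-miR-30e-3p by G18A alone, with positions counted from the 5′ end.

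The whole hairpins of hsa-miR-30a and hsa-miR-30e are shown because their arms moved differently in the libraries. Both arms are in capitals, the 5p arm first.
MIR30A: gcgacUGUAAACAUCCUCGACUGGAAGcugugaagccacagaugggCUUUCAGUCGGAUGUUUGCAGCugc
MIR30E: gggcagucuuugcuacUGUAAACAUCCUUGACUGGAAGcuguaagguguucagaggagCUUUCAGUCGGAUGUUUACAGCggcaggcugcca
In GRCh38, MIR30A lies at chr6:71403551-71403621 on the minus strand, in an intron of the long noncoding RNA LINC00472. MIR30C2, 1 of the 2 hairpins that give hsa-miR-30c-5p, lies in the same host, at chr6:71376960-71377031 on the minus strand. MIR30E lies at chr1:40754355-40754446 on the plus strand, in an intron of NFYC, which encodes a subunit of the CCAAT-binding factor NF-Y. MIR30C1, the other source of hsa-miR-30c-5p, follows in the same gene at chr1:40757284-40757372, and 2837 bases separate it from MIR30E.

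Library depth was 13134601 to 15591345 reads. miRNAs received 1920832 to 3739729 of them in the 6 siRNA libraries (13.4% to 26.5%), against 6171851 (43.1%) in untreated cells. Values are counts per 1000000 miRNA reads (CPM), scaled by edgeR's TMM factors. Libraries stood apart along 1 axis: on the first principal component of log2 CPM, which held 63.1% of the variance, siRNA 1 at 48 h and siRNA 2 at 36 and 48 h lay between 10.6 and 14.0, and the other 4 between -9.49 and -7.86. The 2 libraries at 36 h thus lay at opposite ends, and they held 72.0% of the variation between libraries of the same time. Results are therefore given with and without the 36 h libraries. Leaving out the pair that differed most lowers the estimated spread, so p-values of the fits without it can be too small. The hepatocyte list summed to 16102 to 27464 CPM in siRNA libraries and 21012 CPM untreated, most of it hsa-miR-148a-3p (13919 to 25518 CPM and 18414 CPM). Its other members were hsa-miR-192-5p at 1709 to 3064 CPM and 2479 CPM, hsa-miR-194-5p at 68.6 to 135.6 CPM and 73.1 CPM, and hsa-miR-122-5p, the defining hepatocyte miRNA, at only 3.75 to 47.6 CPM and 45.5 CPM. The summed muscle list (hsa-miR-1-3p, hsa-miR-133a-3p, hsa-miR-206) reached 875.8 CPM in siRNA 1 at 36 h. There hsa-miR-1-3p gave 866.7 CPM, hsa-miR-206 6.58 CPM and hsa-miR-133a-3p 2.53 CPM. The muscle sum stood at 23.1 CPM untreated and at 21.0 CPM in the lowest siRNA library. The blood list summed to 13.3 to 76.3 CPM in siRNA libraries and 11.9 CPM untreated, the list of fibroblast and endothelium to 441.7 to 1067 CPM and 457.8 CPM, and the neuron list to 3436 to 7819 CPM and 3928 CPM. Nearly all of the neuron sum was hsa-miR-128-3p, and hsa-miR-124-3p and hsa-miR-223-3p were at 0 in all libraries. The part of these markers in the results was not tested, and in bulk libraries fewer cells of a type and less RNA per cell cannot be told apart.

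hsa-miR-30a-5p was by far the most abundant member, and it was lower in the same 3 libraries that stood apart. It stood at 73167 CPM at 0 h, where it was the third most abundant miRNA. Across the later times of siRNA 2 the level was 72311 CPM (24 h), 48271 CPM (36 h) and 47175 CPM (48 h), and across those of siRNA 1 it was 76438, 73330 and 48426 CPM. Both libraries at 48 h lay below both at 24 h and below 0 h, and the library of siRNA 1 at 36 h lay with the 24 h group. Over the 6 siRNA libraries the mean was 60992 ± 14350 CPM (SD, n = 6), so the untreated value was within 1 SD.

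The next 2 of the 5p members in abundance showed no such drop. hsa-miR-30d-5p, the second most abundant, stood at 11126 CPM at 0 h, at 9336 CPM (24 h), 11934 CPM (36 h) and 14990 CPM (48 h) with siRNA 2, and at 11450, 10659 and 12654 CPM with siRNA 1. The 48 h values were the highest of each course. hsa-miR-30c-5p stood at 6608 CPM at 0 h, at 6128, 6440 and 7545 CPM with siRNA 2, and at 8865, 8000 and 7270 CPM with siRNA 1. On this scale it was higher at each later time with siRNA 2 and lower at each with siRNA 1. As a share of miRNA reads it was 0.754% at 36 h with siRNA 2 and 0.823% with siRNA 1, against 0.522% and 0.802% at 24 h, so there both courses were higher at 36 h.

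hsa-miR-30b-5p and hsa-miR-30e-5p were the least abundant 5p members and the most variable. hsa-miR-30b-5p stood at 681.8 CPM at 0 h, at 895.6, 310.6 and 515.6 CPM with siRNA 2, and at 1101, 1033 and 389.1 CPM with siRNA 1. It lay above the untreated value in 3 siRNA libraries and below it in 3, and its highest value was 3.55 times its lowest. hsa-miR-30e-5p stood at 727.8 CPM at 0 h, at 507.6, 218.2 and 329.1 CPM with siRNA 2, and at 627.0, 637.5 and 320.9 CPM with siRNA 1. It was below untreated in 6 of 6 siRNA libraries on the TMM scale. Without the TMM factors it was below in the other 5 but not in siRNA 1 at 36 h, where it took 0.0656% of miRNA reads, against 0.0633% in untreated cells. The SDs of log2 CPM over the 7 libraries were 0.71 for hsa-miR-30b-5p and 0.65 for hsa-miR-30e-5p, against a median of 0.46 over the 458 tested miRNAs.

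**Figure D1:**
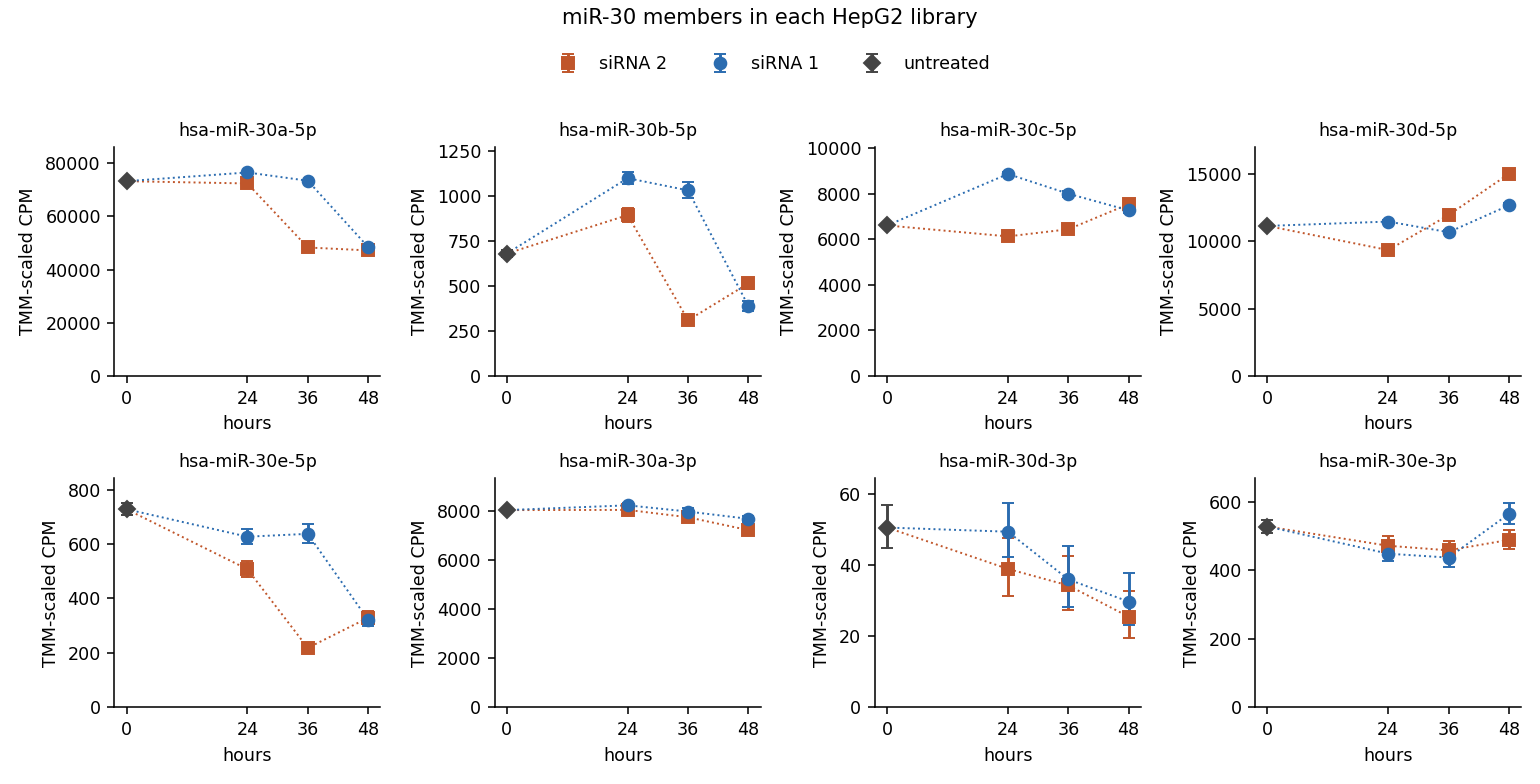
TMM-scaled CPM of each of the 8 members (vertical axis, starting at 0) against hours of siRNA treatment (horizontal axis), with squares for siRNA 2, circles for siRNA 1 and a diamond for the untreated library at 0 h; each point is 1 library, bars are exact 95% binomial intervals of the count, and dotted lines only join the points of a course. hsa-miR-30a-5p, hsa-miR-30b-5p and hsa-miR-30e-5p are low in siRNA 2 at 36 h and in both 48 h libraries, while hsa-miR-30a-3p stays between 7203 and 8213 CPM.

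Of the 3p arms, hsa-miR-30a-3p and hsa-miR-30e-3p varied little across libraries on the TMM scale. hsa-miR-30a-3p, the opposite arm of the most abundant member, stood at 8019 CPM at 0 h, at 8026, 7727 and 7203 CPM with siRNA 2, and at 8213, 7960 and 7663 CPM with siRNA 1. Its SD of log2 CPM was 0.063, the lowest of all 458 tested miRNAs. hsa-miR-30e-3p stood at 527.9 CPM at 0 h, at 471.7, 458.3 and 488.9 CPM with siRNA 2, and at 448.5, 437.1 and 565.0 CPM with siRNA 1. These groups overlapped. hsa-miR-30d-3p was rare, with 61 to 167 reads in siRNA libraries and 271 in untreated cells. Its level was 50.5 CPM at 0 h, 38.9, 34.2 and 25.4 CPM with siRNA 2, and 49.3, 35.9 and 29.7 CPM with siRNA 1, and it was below untreated in 6 of 6 on the TMM scale. Without the TMM factors siRNA 1 at 24 h was not below, at 0.00447% of miRNA reads, against 0.00439% in untreated cells. At 24 h the 95% intervals were 31.4 to 47.6 CPM with siRNA 2 and 42.1 to 57.4 CPM with siRNA 1, against 44.7 to 56.9 CPM in untreated cells, and they cover counting error only.

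In order of mean CPM over the siRNA libraries, the members were hsa-miR-30a-5p, hsa-miR-30d-5p at 11837 ± 1919, hsa-miR-30a-3p at 7799 ± 354, hsa-miR-30c-5p at 7375 ± 1008, hsa-miR-30b-5p at 707.6 ± 344.2, hsa-miR-30e-3p at 478.3 ± 46.2, hsa-miR-30e-5p at 440.1 ± 175.6 and hsa-miR-30d-3p at 35.6 ± 8.24 CPM (SD, n = 6 for each). The neighbours hsa-miR-30a-3p and hsa-miR-30c-5p differed by less than the SD of the second, and so did hsa-miR-30b-5p and hsa-miR-30e-3p by less than the SD of the first. hsa-miR-30e-3p and hsa-miR-30e-5p changed order between libraries.

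Read as a whole, the 5p family kept its share of the miRNA reads while its make-up shifted. The 5 members took 7.48% to 9.64% of miRNA reads in the siRNA libraries and 8.02% in untreated cells, which lay within that range. hsa-miR-30a-5p gave 66.9% and 70.1% of those reads at 48 h (siRNA 2 and siRNA 1), against 81.1% and 77.6% at 24 h, and 79.3% at 0 h. hsa-miR-30d-5p gave 21.2% and 18.3% at 48 h, against 10.5% and 11.6% at 24 h, and 12.1% at 0 h. These shares need no scaling between libraries. On the TMM scale the summed 5p members stood at 70554 and 69060 CPM at 48 h (siRNA 2 and siRNA 1), against 89177 and 98482 CPM at 24 h. As CPM with no TMM factor the same sums were 80711 and 74811 at 48 h, against 75927 and 89124 at 24 h, and these overlapped. With the size factors of DESeq2 the groups stood apart, at 72161 and 68392 at 48 h, against 89906 and 98239 at 24 h. Per 1000000 of all reads, assigned to a miRNA or not, the 5p sum was 11348 to 23657 in the siRNA libraries, against 34613 in untreated cells, and the miRNA share of all reads given above differs in the same direction.

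**Figure D2:**
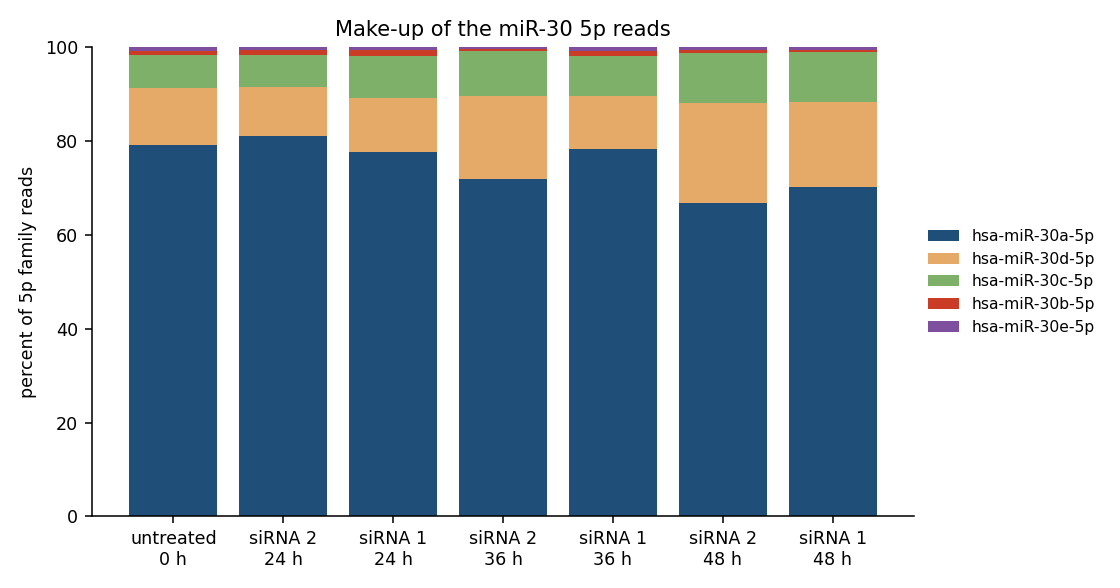
Share of each 5p member (vertical axis, percent of the reads of the 5 members together) in each of the 7 libraries (horizontal axis, ordered by hour, siRNA 2 left of siRNA 1). hsa-miR-30a-5p gave 66.9% to 71.9% in siRNA 2 at 36 h and both 48 h libraries, and 77.6% to 81.1% in the other 4.

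No member passed edgeR's quasi-likelihood F-test with Benjamini-Hochberg adjustment at 0.05 against untreated cells. All 8 were among the 458 miRNAs tested, which averaged 10 or more reads per library. The background was as empty: 0% of the 458 were called for the mean of all times, for 24 h, for 36 h and for 48 h against untreated, with 23, 11, 19 and 53 miRNAs at an unadjusted p under 0.05. The untreated arm has 1 library, assumed to vary like the siRNA pairs. For all times against untreated, the log2 fold changes were -0.29 ± 0.27 (SE) for hsa-miR-30a-5p, -0.02 ± 0.57 for hsa-miR-30b-5p, 0.16 ± 0.29 for hsa-miR-30c-5p, 0.08 ± 0.25 for hsa-miR-30d-5p and -0.76 ± 0.49 for hsa-miR-30e-5p. The 3p arms were at -0.04 ± 0.22 for hsa-miR-30a-3p, -0.53 ± 0.33 for hsa-miR-30d-3p and -0.15 ± 0.26 for hsa-miR-30e-3p. Adjusted p-values of the 8 members lay between 0.900 and 0.999. The median over the 8 was -0.09, beside -0.05 over all tested miRNAs. Several of these signs depend on the scaling: hsa-miR-30b-5p and hsa-miR-30a-3p were above 0 with total miRNA counts or the size factors of DESeq2, hsa-miR-30e-3p was above 0 with total miRNA counts, and all 8 were below 0 with all reads as the scale. These scales moved the median of all tested miRNAs to 0.19 (total miRNA counts) and -1.13 (all reads).

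hsa-miR-30e-5p had the fold change furthest from 0 among the members for all times and for 48 h against untreated. At 24 h that was hsa-miR-30b-5p, at 0.55 ± 0.66 (SE, edgeR adjusted p 0.997). The log2 fold change of hsa-miR-30e-5p was -1.16 ± 0.57 (SE) for 48 h against untreated (edgeR adjusted p 0.367). With both 36 h libraries left out, 10.7% of 467 miRNAs were called for the mean of the other 2 times against untreated, 2.78% for 24 h and 25.1% for 48 h. hsa-miR-30e-5p was the 1 member of 8 called among them, at -1.12 ± 0.27 for 48 h (edgeR adjusted p 0.000447) and -0.71 ± 0.24 for the mean of both times (edgeR adjusted p 0.0379), and 0 of 8 were called at 24 h. Removal of a linear trend of log2 CPM on GC content in that fit left 22.5% called at 48 h, with hsa-miR-30e-5p at -0.89 (edgeR adjusted p 0.00950), and 9.21% called for the mean of both times, where no member was called and hsa-miR-30e-5p was at -0.63 (edgeR adjusted p 0.105).

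Between 48 h and 24 h, where each arm has 2 libraries, 3 of the 5p members were lower at 48 h in both courses, and their calls depended on the 36 h libraries. In the fit of all 7 libraries 0% of 458 miRNAs were called, 0 of 8 members among them, and 84 miRNAs and 1 member had an unadjusted p under 0.05. The log2 fold changes were -0.64 ± 0.26 (SE) for hsa-miR-30a-5p (edgeR adjusted p 0.260), -1.14 ± 0.53 for hsa-miR-30b-5p (0.293), -0.80 ± 0.48 for hsa-miR-30e-5p (0.404) and 0.41 ± 0.23 for hsa-miR-30d-5p (0.383). hsa-miR-30c-5p was at -0.02 ± 0.27, with opposite signs in the 2 courses. The median over the 8 was -0.38, beside 0.03 over all tested miRNAs.

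Without both 36 h libraries the spread came from the 24 h and 48 h pairs alone, and 28.7% of 467 miRNAs were called, 51 higher and 83 lower at 48 h. The pair left out was the one that differed most, so the p-values of this fit can be too small. Of the 8 members, 3 fell: hsa-miR-30a-5p by 0.65 ± 0.20 on the log2 scale (edgeR adjusted p 0.00485), hsa-miR-30b-5p by 1.15 ± 0.23 (edgeR adjusted p 5.13e-06) and hsa-miR-30e-5p by 0.82 ± 0.23 (edgeR adjusted p 0.00268). hsa-miR-30d-5p was at 0.40 ± 0.20 (edgeR adjusted p 0.114), hsa-miR-30d-3p at -0.70 ± 0.31 (edgeR adjusted p 0.0772), and the other 3 had larger adjusted p-values. Leaving out only siRNA 1 at 36 h gave -0.62, -1.11 and -0.78 for hsa-miR-30a-5p, hsa-miR-30b-5p and hsa-miR-30e-5p. Without only siRNA 2 at 36 h the same 3 were at -0.63, -1.14 and -0.80. These fits are not separate tests, since the 36 h libraries enter this contrast only through scaling, the count filter and the estimated spread. The share of 3 in 8 members is near the background of 28.7%. On total miRNA counts, again without the 36 h libraries, hsa-miR-30b-5p fell by 0.80 (edgeR adjusted p 0.0121), hsa-miR-30d-5p rose by 0.75 (edgeR adjusted p 0.0214), and hsa-miR-30a-5p (-0.30) and hsa-miR-30e-5p (-0.47) were not called. On that scale 160 of 467 miRNAs were called, 105 higher and 55 lower at 48 h. That scale moved the median of all tested miRNAs to 0.34, and relative to it all 4 lay closer to the values on the TMM scale.

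**Figure D3:**
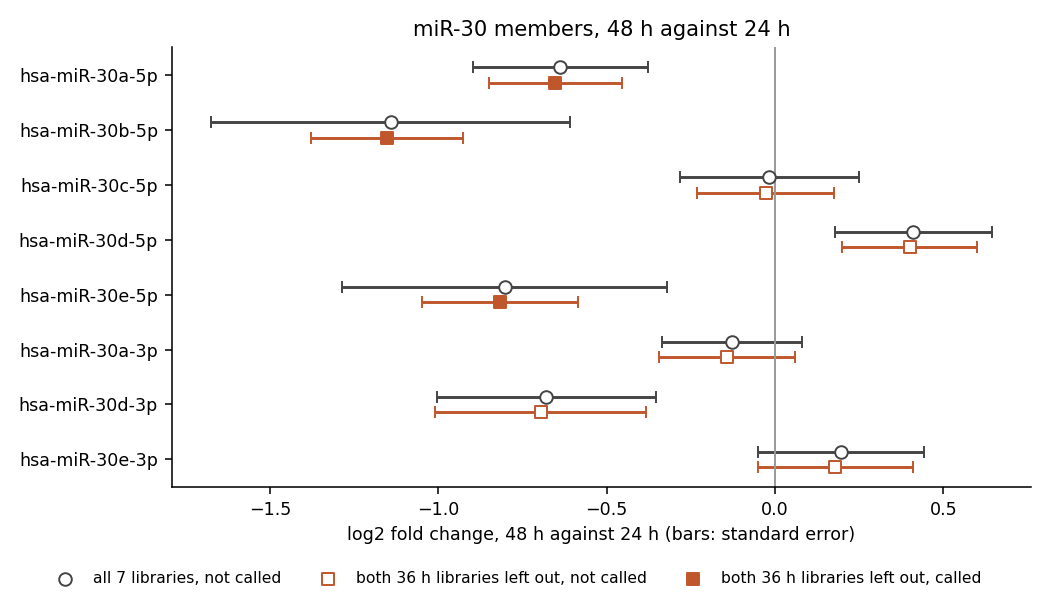
log2 fold change of each member at 48 h against 24 h (horizontal axis) with its standard error as the bar, from the edgeR fit of all 7 libraries (circles) and from the fit with both 36 h libraries left out (squares); filled symbols passed an adjusted p of 0.05. hsa-miR-30a-5p, hsa-miR-30b-5p and hsa-miR-30e-5p are filled in the second fit, at nearly the same fold changes as in the first. The design fixes that likeness, since the 36 h libraries enter this contrast only through scaling, the count filter and the estimated spread.

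The GC content of the mature sequence moved with these changes across the 276 miRNAs averaging 50 or more reads per library. Per 10% of GC, log2 CPM relative to the mean of the libraries rose by 0.25 in siRNA 2 at 36 h. It rose by 0.20 and 0.15 at 48 h (siRNA 2 and siRNA 1). In the other libraries it changed by -0.18 to -0.10, so the libraries that stood apart also differed in this trend. The part of GC content in that separation was not tested. The median log2 fold change of 48 h against 24 h was -0.55 for 51 miRNAs with under 40% GC, -0.12 for 89 with 40% to under 50%, 0.08 for 88 with 50% to under 60% and 0.38 for 48 with 60% or more, all averaging 50 or more reads per library. hsa-miR-30b-5p and hsa-miR-30e-5p hold 40.9% GC, hsa-miR-30c-5p 43.5%, hsa-miR-30a-5p, hsa-miR-30d-3p and hsa-miR-30e-3p 45.5%, and hsa-miR-30d-5p and hsa-miR-30a-3p 50%. The 3 members at 45.5% GC had log2 fold changes of -0.64 ± 0.26 (hsa-miR-30a-5p), -0.68 ± 0.32 (hsa-miR-30d-3p) and 0.20 ± 0.25 (hsa-miR-30e-3p). With the GC trend removed from each library, and the 36 h libraries left out, 26.8% were called, and hsa-miR-30a-5p at -0.52 (edgeR adjusted p 0.0295) and hsa-miR-30b-5p at -0.86 (edgeR adjusted p 0.00143) were among them, while hsa-miR-30e-5p at -0.53 (edgeR adjusted p 0.0739) was not.

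**Figure D4:**
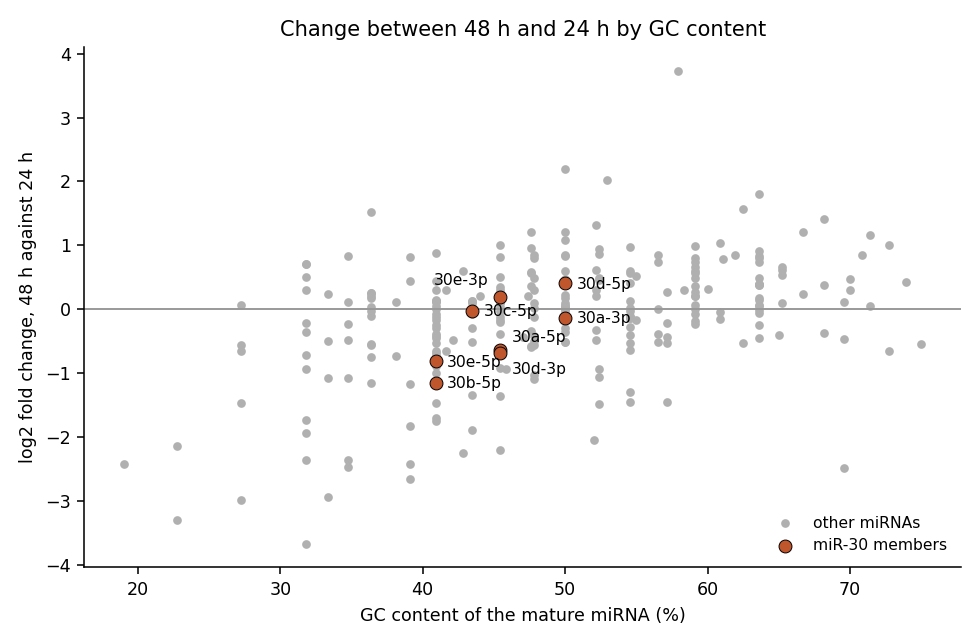
log2 fold change of 48 h against 24 h (vertical axis, edgeR fit of all 7 libraries) against the GC content of the mature miRNA (horizontal axis, percent), for the 8 members (large labelled points) and 268 other miRNAs averaging 50 or more reads (small points). miRNAs with under 40% GC have a median of -0.55 and those with 60% or more a median of 0.38, and the members lie between 40.9% and 50% GC.

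The ratio of the 2 arms of a hairpin compares strands of the same precursor within a library and needs no scaling. It does not remove a trend on GC content, which differs between the arms. The 5p and 3p arms hold 40.9% and 45.5% GC in hsa-miR-30e, 45.5% and 50% in hsa-miR-30a, and 50% and 45.5% in hsa-miR-30d. In each hairpin the arm with more GC gained at 48 h against 24 h, and the part of GC content in these ratios was not tested. For hsa-miR-30e the more abundant arm changed: 5p reads were 1.38 times the 3p reads at 0 h, 1.08, 0.476 and 0.673 times at 24, 36 and 48 h with siRNA 2, and 1.40, 1.46 and 0.568 times with siRNA 1. The 5p arm was thus ahead in untreated cells, in both 24 h libraries and in siRNA 1 at 36 h, and the 3p arm in the 3 libraries that stood apart. Each arm differs by 1 base from the same arm of hsa-miR-30a, so reads of hsa-miR-30a could enter this ratio. For hsa-miR-30a the 5p arm remained ahead, at 9.12 times the 3p reads at 0 h, 9.01, 6.25 and 6.55 times with siRNA 2, and 9.31, 9.21 and 6.32 times with siRNA 1.

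hsa-miR-30d went the other way. Its 5p reads were 220.3 times its 3p reads at 0 h, 240.1, 348.6 and 589.0 times at 24, 36 and 48 h with siRNA 2, and 232.0, 296.7 and 426.1 times with siRNA 1, so it was higher at each later time in both courses. In limma on the log2 arm ratios of 110 hairpins, the change at 48 h against 24 h was 1.08 ± 0.43 (SE) for hsa-miR-30d (limma adjusted p 0.248), -0.99 ± 0.62 for hsa-miR-30e (limma adjusted p 0.434) and -0.51 ± 0.44 for hsa-miR-30a (limma adjusted p 0.565). None of the 3 was called, and the background was 0% for this contrast and 0% for all times against untreated, with 21 and 0 hairpins at an unadjusted p under 0.05. Without both 36 h libraries the same changes had limma adjusted p-values of 0.0891, 0.107 and 0.380, and none of the 3 was called, where 20.2% of 114 hairpins were called for this contrast (9 higher and 14 lower).

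**Figure D5:**
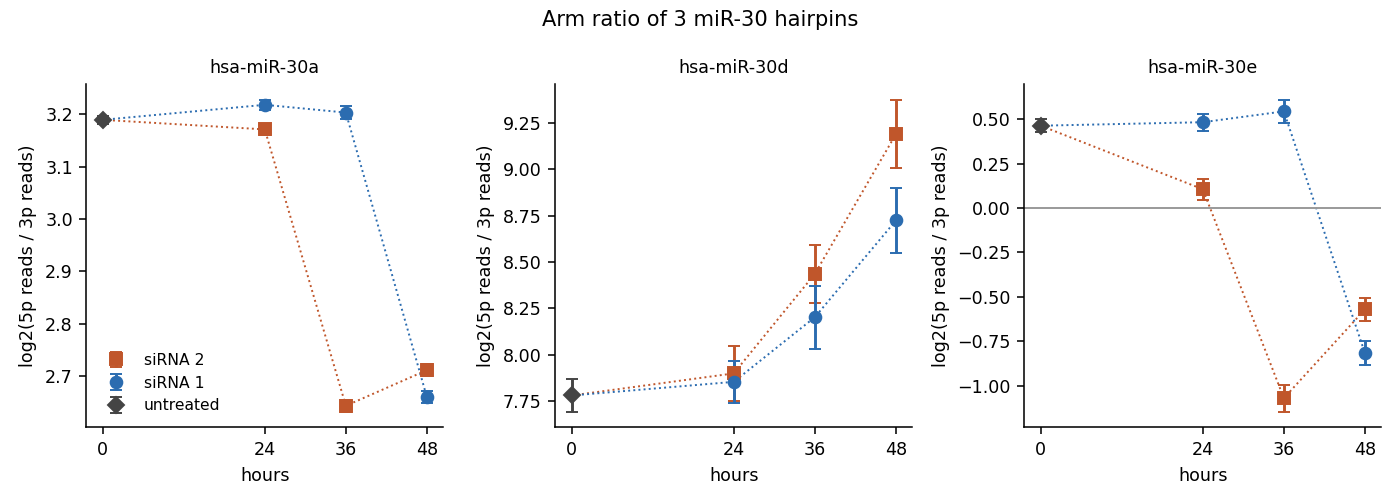
log2 of the 5p reads over the 3p reads (vertical axes, with their own ranges that do not start at 0) against hours (horizontal axes) for the 3 hairpins with both arms listed, with squares for siRNA 2, circles for siRNA 1 and a diamond for untreated; each point is 1 library and bars are the counting standard error. The ratio of hsa-miR-30e passes below 0, where both arms are equal, in siRNA 2 at 36 h and both 48 h libraries, while that of hsa-miR-30d is highest in the 48 h libraries.

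hsa-miR-30b-5p and hsa-miR-30d-5p, which come from neighbouring hairpins, did not move as 1 unit. MIR30B and MIR30D lie 4268 bases apart, in no host gene of GENCODE release 29, and hsa-miR-30d-5p had 29.1 and 32.5 times the reads of hsa-miR-30b-5p at 48 h (siRNA 2 and siRNA 1), against 10.4 in each library at 24 h, and 16.3 at 0 h. The 2 strands differ at 8 of 22 positions. hsa-miR-30c-5p had 22.9 and 22.7 times the reads of hsa-miR-30e-5p at 48 h, against 12.1 and 14.1 at 24 h, and 9.08 at 0 h. hsa-miR-30c-5p comes from MIR30C1, which lies in NFYC with MIR30E, and also from MIR30C2, which lies 26519 bases from MIR30A. Reads of its 2 sources cannot be told apart, so this ratio does not show whether the hairpins in NFYC moved together. The passenger of MIR30C2, hsa-miR-30c-2-3p, which is not among the 8, had 66.8 to 164.9 times the reads of hsa-miR-30c-1-3p in the siRNA libraries and 67.6 times in untreated cells. Its log2 fold change at 48 h against 24 h was -0.29 ± 0.23 (SE) with all libraries. Those of the MIR30A arms were -0.13 ± 0.21 for hsa-miR-30a-3p and -0.64 ± 0.26 for hsa-miR-30a-5p.

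hsa-miR-30a-5p differs from hsa-miR-30d-5p at 1 of 22 positions and from hsa-miR-30e-5p at 1, and how reads with a mismatch were assigned is not given in the sources used here. hsa-miR-30a-3p likewise differs from hsa-miR-30e-3p at 1 of 22 positions, and their means over the siRNA libraries were 7799 and 478.3 CPM. The counts of hsa-miR-30d-5p, hsa-miR-30e-5p and hsa-miR-30e-3p are uncertain to that extent, and so is the arm ratio of hsa-miR-30e. hsa-miR-30a-5p had 100.5 times the reads of hsa-miR-30e-5p in untreated cells and 115.0 to 221.2 times in the siRNA libraries. That ratio was not constant across libraries.

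No member passed the test between siRNA 2 and siRNA 1, by edgeR with time as a factor. Of 435 miRNAs 0% were called, 0 of 8 members among them, and 6 miRNAs and none of the members had an unadjusted p under 0.05. The member furthest from 0 was hsa-miR-30e-5p at -0.57 ± 0.37 (edgeR adjusted p 0.992), with values of -0.06 without siRNA 2 at 36 h, -0.09 without siRNA 1 at 36 h, -0.88 without siRNA 1 at 48 h and -0.92 without siRNA 2 at 48 h. The largest gaps between the siRNAs came at 36 h, where hsa-miR-30b-5p had 310.6 CPM with siRNA 2 and 1033 CPM with siRNA 1.

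The nearest patterns to each 5p member over the 7 libraries are named next. Likeness was taken as the SD of the log2 ratio to the member over the 7 libraries, among 157 other tested miRNAs with a mean of at least 100 CPM, and is a description only. hsa-miR-30a-5p was nearest to hsa-miR-629-5p (0.11), hsa-miR-98-5p (0.11) and hsa-miR-296-3p (0.13), where the median candidate stood at 0.45. hsa-miR-30d-5p was nearest to hsa-miR-23a-3p (0.11), hsa-miR-92b-3p (0.12) and hsa-miR-15b-3p (0.14), with a median of 0.40. hsa-miR-30c-5p was nearest to hsa-miR-181b-5p (0.076), hsa-miR-181a-5p (0.079) and hsa-miR-125b-2-3p (0.11), with a median of 0.41.

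hsa-miR-30b-5p was nearest to hsa-miR-31-5p (0.20), hsa-miR-148b-5p (0.26) and hsa-miR-769-5p (0.27), with a median of 0.75, and hsa-miR-30e-5p to hsa-miR-17-5p (0.19), hsa-miR-450b-5p (0.22) and hsa-miR-31-5p (0.23), with a median of 0.70. Between 5p members the SD ranged from 0.24 for hsa-miR-30c-5p with hsa-miR-30d-5p to 0.85 for hsa-miR-30b-5p with hsa-miR-30d-5p, and hsa-miR-30b-5p with hsa-miR-30e-5p stood at 0.33, below the median candidate of either. None of the nearest 3 of any 5p member was another member of the family, but the other members, hsa-miR-30d-3p left out for its low level, were few among the 157 candidates.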

How the data were processed

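Small RNA was sequenced from 7 HepG2 libraries: 6 of siRNA-treated cells and 1 of untreated cells. Per the labels' protocols, total RNA from a column kit went into a ligation-based small RNA kit. The authors deposited raw read counts per mature miRNA for each library. Which aligner, counter and build they used is not given in the sources used here. The 5 summary lines of each file entered neither library sizes nor tests. Their main line, reads outside any feature, held 73.5% to 86.6% of the siRNA libraries and 56.9% of the untreated one.

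The test was edgeR 4.0.16 (R 4.3.3), quasi-likelihood, with TMM factors, a mean count of at least 10 over the libraries of the fit and Benjamini-Hochberg adjustment over all miRNAs tested, called at 0.05. Untreated and the 3 times entered 1 fit. siRNA 2 against siRNA 1 used the 6 siRNA libraries with time as a factor. A standard error is the log2 fold change over the square root of F. Arm ratios, log2 of 5p over 3p reads with 0.5 added to each, were tested with limma 3.58.1 over 110 hairpins. Intervals are exact 95% binomial and cover counting error only. All 8 members were named in every library, with 3 further arms of their hairpins as context and the nearest 3 miRNAs of each 5p member. The members and the lists (hepatocyte, muscle, blood, fibroblast and endothelium, neuron) were chosen with earlier results of these data known. Alternatives were DESeq2 1.42.0, limma-voom, other scales and filters, each siRNA library left out, both 36 h libraries left out and the siRNA number as a block. Removal of a GC trend, and its combination or that of other scales or DESeq2 with leaving out 36 h, were chosen after seeing the data. The scripts were tested on simulated data that held no GC trend and no discordant 36 h pair. That checks the code and does not give the power or error rate of the fits here.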

Additional observations from a re-analysis of the deposited data

Results flagged for a closer look

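hsa-miR-30c-5p went opposite ways in the courses of siRNA 2 and siRNA 1, beyond the counting intervals of each pair of libraries. At 36 h against 24 h its log2 CPM difference was 0.072 with siRNA 2 and -0.15 with siRNA 1, and at 48 h against 24 h it was 0.30 with siRNA 2 and -0.29 with siRNA 1. hsa-miR-30d-5p did so at 36 h against 24 h, with 0.35 for siRNA 2 and -0.10 for siRNA 1. On shares of miRNA reads, without TMM factors, both members were higher at 36 h than at 24 h in both courses: hsa-miR-30c-5p at 0.754% with siRNA 2 and 0.823% with siRNA 1, against 0.522% and 0.802% at 24 h, and hsa-miR-30d-5p at 1.40% and 1.10%, against 0.795% and 1.04%. Each value compares 1 library with 1 library, and the difference between the siRNAs was not tested.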

How the results depend on the processing

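No member was called in any comparison of all 7 libraries on the TMM scale, with DESeq2, limma-voom, other filters, the size factors of DESeq2, total miRNA counts or the GC trend removed. The counts over all miRNAs moved more: DESeq2 called 1, 1, 7, 12 and 23 of 458 for all times, 24 h, 36 h and 48 h against untreated and 48 h against 24 h, where edgeR called 0. With no count filter edgeR called 12, 2, 10, 39 and 51 of 1560, and the GC trend removed gave 1 for 48 h against 24 h. Scaling by all reads put the median of the tested miRNAs at -1.13 for all times, and edgeR then called 120, 2, 49, 118 and 29, with 3 members for all times against untreated, 2 for 36 h and 3 for 48 h. Leaving out 1 siRNA library leaves 1 library at that time, so counts of calls are not given for those fits. Members were called only where a 36 h library was left out, and calls over all miRNAs rose there too. For 48 h against 24 h, those fits gave -0.66 to -0.60 for hsa-miR-30a-5p and -1.36 to -0.95 for hsa-miR-30b-5p. They gave -0.89 to -0.65 for hsa-miR-30e-5p and 0.28 to 0.56 for hsa-miR-30d-5p.

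With both 36 h libraries left out, the members called numbered 1 for all times against untreated, 1 for 48 h and 3 for 48 h against 24 h. In that subset all reads as the scale called 4, 4 and 1 members, and total miRNA counts 0, 1 and 2. DESeq2 called 0, 1 and 3, and the GC trend removed 0, 1 and 2. Over all 467 miRNAs tested, calls numbered 50, 117 and 134 on the TMM scale. They numbered 196, 185 and 59 with all reads and 27, 115 and 160 with total miRNA counts. DESeq2 gave 26, 77 and 102 over all miRNAs, and the GC trend removed 43, 105 and 125. None of the 3 arm ratios of the family was called under any alternative, and their 66 values kept their direction. Many of these values could not change. The count filter and the replicate block leave the ratio changes unaltered, and the 36 h libraries do not enter 48 h against 24 h. Over all hairpins, 0 were called for 48 h against 24 h with all libraries and 23 of 114 without both 36 h libraries.

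The siRNA number as a replicate block called 0 members in every comparison, as did the fit of siRNA 2 against siRNA 1 with no replicate block and no time factor. The number names an siRNA and not a shared culture. Correlations of the siRNA 2 minus siRNA 1 differences over 458 miRNAs were 0.096 (24 and 36 h), -0.25 (24 and 48 h) and -0.16 (36 and 48 h), so it did not pair the libraries. With the block, 5 of 110 arm ratios were called for 48 h against 24 h, none of them of the family.

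Of 332 values of the members' log2 fold changes, 28 changed sign, and none of these was called. For 48 h against 24 h, hsa-miR-30c-5p was at 0.0044 with limma-voom, 0.32 with total miRNA counts, 0.18 with the GC trend removed and 0.0095 with the replicate block, and without the 36 h libraries at 0.32, 0.026 and 0.17 with total miRNA counts, DESeq2 and the GC trend removed. Leaving out 1 library gave -0.21 to 0.27. hsa-miR-30a-3p was at 0.21 with total miRNA counts, with or without 36 h. For all times against untreated, hsa-miR-30b-5p was at 0.044 with DESeq2 and with its size factors, 0.20 with total miRNA counts, 0.049 with the GC trend removed, 0.033 without 36 h and -0.37 to 0.18 with 1 library left out. hsa-miR-30a-3p was at 0.029 with DESeq2 and with its size factors, 0.20 with total miRNA counts and 0.0075 without 36 h, hsa-miR-30e-3p at 0.091 with total miRNA counts, hsa-miR-30d-5p at -0.99 with all reads and -0.0070 with no count filter, and hsa-miR-30c-5p at -0.92 with all reads. Except for changes of scale, the cause was not tested. Depth limits hsa-miR-30d-3p most, with 61 reads in its lowest library.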

Other observations

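The other arms of the miR-30 hairpins, which are not among the 8, gave few reads except for hsa-miR-30c-2-3p. That strand stood at 1121 CPM at 0 h, at 1305, 1224 and 996.6 CPM at 24, 36 and 48 h with siRNA 2, and at 1204, 1184 and 1049 CPM with siRNA 1, so both courses were lower at each later time on the TMM scale. As a share of miRNA reads the order turned: 0.111%, 0.143% and 0.114% with siRNA 2 and 0.109%, 0.122% and 0.114% with siRNA 1, with both later times above 24 h. hsa-miR-30c-1-3p had 18 to 61 reads in the siRNA libraries and 89 in untreated cells, and hsa-miR-30b-3p had 9 to 17 reads and 23. None of the 3 was called by edgeR in any contrast of all 7 libraries.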
